A study of Mus musculus with 18 samples.

Results

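CD11b+ cells sorted from the liver were compared between mice that express BRAFV600E under CD11c-Cre (BRAF) and littermates without Cre (WT). The comparison uses 4 of the 18 arrays of the series, chosen by their titles: BRAF replicates 2 and 3 against WT replicates 1 and 3. It was described across 15365 tested genes of 19752 with a probe set that names 1 gene. All 4 arrays come from mice that carry the BRAFV600E(CA-flox) allele; the BRAF mice are CD11c-Cre(positive) and the WT mice CD11c-Cre(neg), all 14 weeks old and unmanipulated before the liver was taken. CD11c-Cre recombines the allele in cells that express the integrin CD11c, so CD11b+ cells without CD11c can keep it unrecombined, and the array does not tell the mutant from the normal transcript. Cells were sorted on a FACS Aria, with no gate beyond CD11b given. Whether the numbered replicates are separate animals is not stated, so every p-value reflects the spread between arrays of a group, pooled in the fit over all 18 arrays of the series, which may be technical.

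BRAF is a kinase that passes signals from RAS to MEK and ERK, and the V600E form is active without an upstream signal. In the liver, CD11b is carried by monocytes, macrophages, neutrophils and a class of dendritic cells, and CD11c by dendritic cells and some macrophages. In Langerhans cell histiocytosis, cells of this lineage with active ERK signalling gather in lesions, and the series concerns how that pathway affects their migration.

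Values are log2 of the deposited intensity, and a difference is BRAF minus WT with its standard error, so that 1 unit is a doubling. A gene was called where limma's p, with Benjamini-Hochberg adjustment over all tested genes, was under 0.05. Of all 15365 tested genes 8650 had a difference above 0 and 6715 below, the base for such counts in the gene lists. WT replicate 3 stood apart: its interquartile range of log2 values was 1.92, against 2.43 to 2.89 on the other liver arrays. Among the 3841 genes of highest mean level the median difference was 0.36, and among the 3842 of lowest level -0.16; without WT replicate 3 these were 0.18 and 0.02. Values without that array stand beside most of the called genes that are described singly. They are not given for most uncalled genes, and their absence does not mean that the array had no part.

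Braf, the gene that carries the allele, read 8.57 and 8.09 on the WT arrays and 8.91 and 8.39 on the BRAF arrays, and the groups overlapped. Itgam, which encodes CD11b, read 10.30 and 9.32 in WT and 10.92 and 10.24 in BRAF. Itgax, which encodes CD11c, read 11.68 and 11.11 in WT and 11.72 and 10.88 in BRAF. The macrophage gene Adgre1 read between 10.18 and 10.76 on all 4 arrays, and the Kupffer cell genes Clec4f and Timd4 between 5.83 and 6.93. None of Braf, Itgam, Itgax and Adgre1 was called. Of the defining neutrophil genes, Ly6g and S100a9 read at most 6.28, and S100a8 read 5.78 and 5.68 in WT and 6.91 and 6.83 in BRAF. Of the 17 tested neutrophil genes 10 were above 0 and 7 below, with a median of 0.03. Both BRAF arrays lay above both WT arrays for 6 and below them for 2, beside 22.7% and 15.8% of all tested genes. The mean level of the list was 6.31 and 6.56 in WT and 6.89 and 7.57 in BRAF, and its part in other differences was not tested.

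In BRAF liver cells 22 genes were called higher, 0.143% of those tested, by 2.03-fold to 41.5-fold. Another 11 were called lower, 0.0716%, and 2 of these are immunoglobulin kappa segments. For 4 of the 11, Cpa3, Retnla and both kappa segments, the BRAF values lay below the 30th percentile of their array, so the size of the fold depends on how low values were measured. limma's array weights, lower for arrays that vary more, were 0.373 to 0.45 in liver, 0.611 to 1.693 in lung and 0.109 to 6.025 in cultured cells. With these weights 0 genes were called higher and 1 lower. A fit of the liver arrays alone called 3 higher and 4 lower, and 4 of these 7 are among the 33. For all 33 called genes both BRAF arrays lay on the same side of both WT arrays, a pattern that 22.7% of tested genes showed upward and 15.8% downward. With this separation, leaving out any 1 of the 4 arrays could not turn the direction of any of the 33. The calls held less well: without WT replicate 3, 2 of the 22 higher and 4 of the 11 lower genes were still called, and without BRAF replicate 3, 7 and 1. Emp1 and Igkv6-20 were called in all 4 of these fits.

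**Figure D1:**
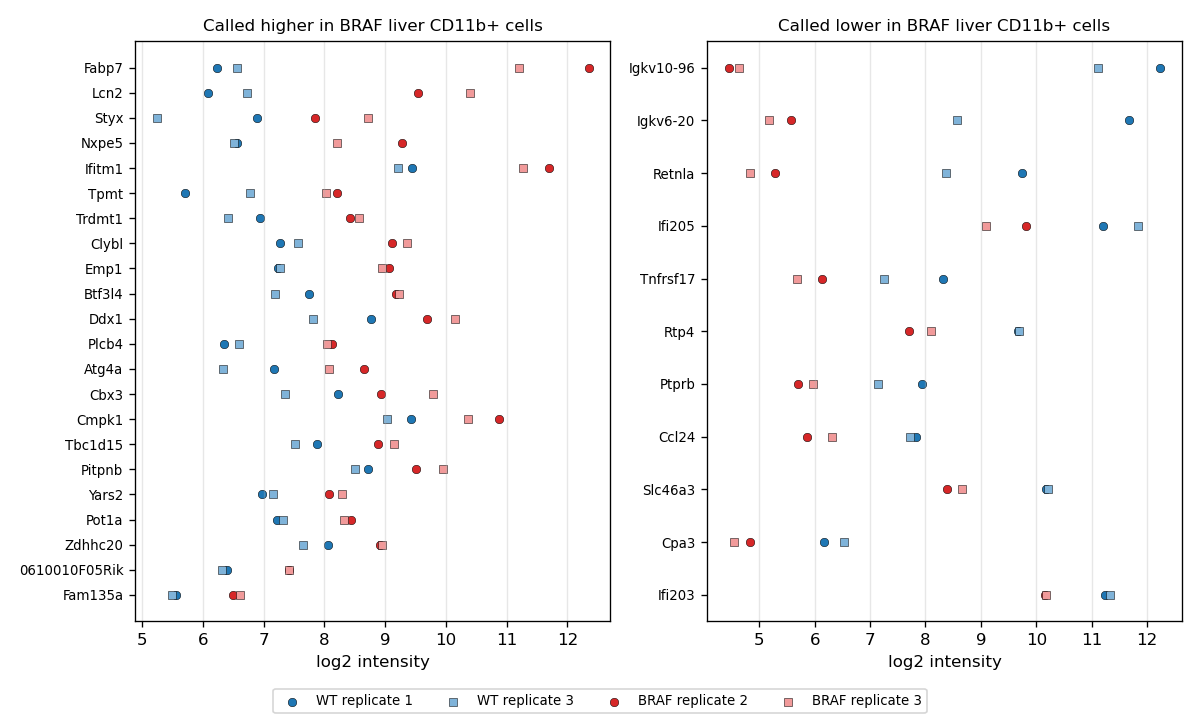
Log2 intensity (x axis) on each of the 4 liver CD11b+ arrays for the 22 genes called higher (left) and the 11 called lower (right) in BRAF cells, ordered by the difference; circles and squares are single arrays. In every row the red BRAF points lie on one side of the blue WT points, and the WT points of Styx and Igkv6-20 are the widest apart in their panels.

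Fabp7, a fatty acid binding protein of glia and some macrophages, had the widest increase. It read 6.24 and 6.56 in WT and 12.35 and 11.20 in BRAF, a 41.5-fold rise (adjusted p = 0.0214; 0.103 without WT replicate 3, where the difference was 5.54). Its difference in lung CD11b+ cells was 5.28 (adjusted p = 0.0123). Lcn2, which binds bacterial siderophores and is the 1 gene of the neutrophil list that was called, read 6.09 and 6.73 in WT and 9.54 and 10.40 in BRAF (11.8-fold; adjusted p = 0.0453, 0.13 without WT replicate 3). Both BRAF arrays were thus far above both WT arrays for these genes, and in each the difference was larger without WT replicate 3. Ifitm1, a membrane protein of the interferon-induced transmembrane family, read 9.45 and 9.21 in WT and 11.69 and 11.27 in BRAF (4.44-fold; adjusted p = 0.0129, and 0.0564 without WT replicate 3). Emp1, a membrane protein gene listed among ERK targets, was even within each group: 7.24 and 7.26 in WT against 9.06 and 8.95 in BRAF, 3.38-fold, with an adjusted p of 0.0129 and of 0.0466 without WT replicate 3. It was the 1 gene called of the 30 tested in the list of ERK feedback and targets, whose median difference was -0.07.

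The other called increases were smaller than that of Lcn2. Plcb4, a phospholipase C of G protein signalling, read 6.34 and 6.60 in WT and 8.13 and 8.04 in BRAF; it was also called higher in lung CD11b+ cells, by 2.00. Nxpe5 read 6.56 and 6.52 in WT and 9.28 and 8.20 in BRAF. Atg4a, an autophagy protease, read 7.17 and 6.33 in WT and 8.65 and 8.07 in BRAF. These 3 genes were not called without WT replicate 3, where limma's adjusted p was 0.125 for Plcb4, 0.11 for Nxpe5 and 0.156 for Atg4a. Tpmt, which methylates thiopurines, read 5.70 and 6.77 in WT and 8.20 and 8.03 in BRAF, and with Emp1 it is the other gene still called higher without WT replicate 3 (adjusted p = 0.0323). The RNA helicase gene Ddx1, the chromatin gene Cbx3 and Styx were lower on WT replicate 3 than on WT replicate 1, and their differences without that array were 1.16, 1.14 and 1.39 in place of 1.63, 1.58 and 2.21. For 14 of the 22 genes called higher, WT replicate 3 was the lower WT array. Trdmt1, Clybl, Btf3l4, Cmpk1, Tbc1d15, Pitpnb, Yars2, Pot1a, Zdhhc20, 0610010F05Rik and Fam135a make up the rest, with differences from 1.02 to 1.82.

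Of the genes called lower, Retnla and Ccl24 mark alternatively activated macrophages. Retnla read 9.74 and 8.36 in WT and 5.29 and 4.84 in BRAF, a 15.9-fold fall (adjusted p = 0.0292; 0.0497 without WT replicate 3). Ccl24, an eosinophil chemokine, read 7.82 and 7.72 in WT and 5.86 and 6.32 in BRAF (3.21-fold; adjusted p = 0.0377, and 0.133 without WT replicate 3). Ccl17, a chemokine of dendritic cells and alternative activation, read 11.15 and 10.80 in WT and 7.67 and 7.21 in BRAF, a difference of -3.54 that missed the threshold (adjusted p = 0.0599). Of the 22 tested genes of alternative activation 15 were below 0. Retnla and Ccl24 were the 2 called, beside 0.0716% of all tested genes called lower. The list's median was -0.44 beside 0.08 over all genes tested. Leaving out BRAF replicate 3 gave -0.12 and leaving out WT replicate 1 gave -0.25. Slc46a3, a lysosomal transporter, read 10.17 and 10.21 in WT and 8.38 and 8.67 in BRAF, and it was the 1 gene called lower in lung CD11b+ cells too. Without WT replicate 3 its difference was -1.65 (adjusted p = 0.214).

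Genes of antibody-secreting cells were mostly below 0, and 2 kappa segments and Tnfrsf17 were called lower. One immunoglobulin kappa segment read 12.24 and 11.12 in WT and 4.44 and 4.63 in BRAF (adjusted p = 0.027, and 0.101 without WT replicate 3), and another, Igkv6-20, read 11.68 and 8.58 in WT and 5.58 and 5.18 in BRAF (adjusted p = 0.0129). Tnfrsf17, the receptor BCMA of plasma cells, read 8.31 and 7.25 in WT and 6.12 and 5.68 in BRAF (adjusted p = 0.049, and 0.0324 without WT replicate 3). Segments of this kind resemble each other, so their probe sets can share signal. Jchain, which joins IgA and IgM chains, was not called: 12.15 and 10.16 in WT, 7.16 and 4.96 in BRAF. Of the 13 tested plasma cell genes 12 were below 0 and 1 was called. Both BRAF arrays lay below both WT arrays for 8 of the 13, beside 15.8% of all tested genes. The list's median was -0.89 (-1.35 without WT replicate 3 and -0.50 without BRAF replicate 3). The member above 0 was Sdc1, the syndecan CD138 that marks plasma cells, which read 7.15 and 7.15 in WT and 8.35 and 7.79 in BRAF, apart but not called (adjusted p = 0.301). In a sorted population, fewer cells of a type and less RNA per cell cannot be told apart.

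Among markers of other cells that a liver sort can hold, 1 mast cell gene and 1 endothelial gene were called. Cpa3, a mast cell protease, was called lower (6.16 and 6.52 in WT, 4.83 and 4.54 in BRAF; adjusted p = 0.0214, and 0.124 without WT replicate 3), and 10 of 11 tested mast cell and basophil genes were below 0, while the defining genes Ms4a2 and Fcer1a did not pass the filter on low values. Ptprb, an endothelial phosphatase, was called lower (7.95 and 7.15 in WT, 5.70 and 5.97 in BRAF; adjusted p = 0.027, and 0.0195 without WT replicate 3). Of the 15 tested genes of the sinusoidal endothelium 12 were below 0, with a median of -0.51. Against 15.8% of all tested genes, 10 of these 15 had both BRAF arrays below both WT arrays. Among them Dnase1l3 read 9.32 and 8.15 in WT and 6.03 and 7.06 in BRAF without a call. The list's mean level was 7.62 and 7.15 on the WT arrays and 6.73 and 6.78 on the BRAF arrays. All 11 tested T cell genes were below 0, with 0 called. The part of these cells in the other differences was not tested.

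Hepatocyte genes did not follow genotype. Alb, serum albumin, read 11.40 and 8.05 in WT and 11.63 and 8.85 in BRAF, high on WT replicate 1 and BRAF replicate 2. In 12 of the 13 tested hepatocyte genes those arrays lay above the other 2. The list's mean level was 7.98 and 6.58 in WT and 7.96 and 6.38 in BRAF.

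**Figure D2:**
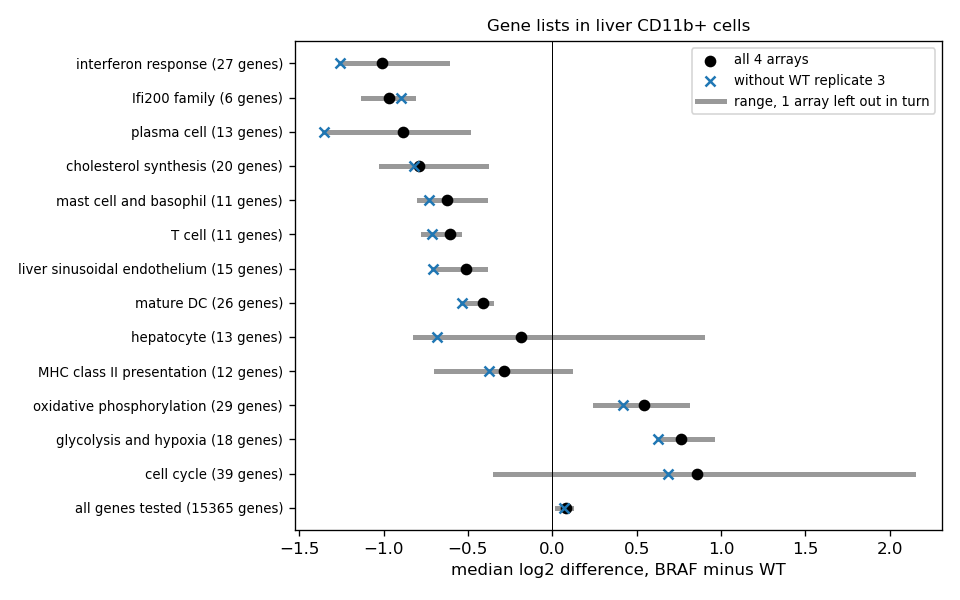
Median log2 difference, BRAF minus WT (x axis), of gene lists and of all genes tested; black points use all 4 arrays, blue crosses leave out WT replicate 3 and grey bars span the medians with each array left out in turn. The interferon response list sits at -1.01 with its bar below 0, while the bar of the cell cycle list crosses 0.

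Interferon response genes were mostly below 0 in BRAF liver cells, with 1 called. Of 27 tested, 25 were below 0, with a median difference of -1.01 beside 0.08 over all genes. Both BRAF arrays lay below both WT arrays for 23, beside 15.8% of all tested genes. The called gene was Rtp4. Leaving out WT replicate 3 gave a median of -1.26 and leaving out WT replicate 1 gave -0.62, each time with 25 below 0. Rtp4, an interferon-induced receptor transport protein, read 9.68 and 9.69 in WT and 7.69 and 8.10 in BRAF (3.45-fold; adjusted p = 0.049, and 0.214 without WT replicate 3). Of the 6 tested Ifi200 genes, which encode DNA sensors and related nuclear proteins, 5 were below 0 and 2 were called. Ifi205 read 11.20 and 11.84 in WT and 9.81 and 9.09 in BRAF, and Ifi203 read 11.25 and 11.33 in WT and 10.16 and 10.17 in BRAF. Without WT replicate 3 their differences were -1.75 and -1.08, with adjusted p-values of 0.296 and 0.197. The Ifi200 genes are close copies of each other, so signal may be shared between their probe sets.

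The promoters of these genes are shown because most of the genes had differences below 0. RefSeq windows of 300 bases on GRCm38.p6, from 250 before the start site to 50 after it, were searched on both strands for GAAANNGAA, part of the element that interferon-activated factors bind. It was found for 14 of the 20 interferon response genes with a window and 4 of the 6 Ifi200 genes, against 8.49% of the 12142 tested genes with a window. The search used no liver values, so these shares do not bear on the differences. Bst2, with a difference of 0.03, also holds matches. Stretches before the start site are printed 5′ to 3′ on the gene's strand, with matches in capitals (on the opposite strand they read TTCNNTTTC). Ifi205 (chr1:174031856-174031914, minus strand) and Ifi203 (chr1:173942494-173942552, minus strand) were called, Ifi213 (chr1:173599312-173599370, minus strand) had the lowest difference of the family, and Ifit3 (chr19:34583349-34583460, plus strand) and Ifit1 (chr19:34640755-34640838, plus strand) hold several matches.
Ifi205: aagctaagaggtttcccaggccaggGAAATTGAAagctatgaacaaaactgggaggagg
Ifi203: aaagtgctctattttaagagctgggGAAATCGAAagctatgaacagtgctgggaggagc
Ifi213: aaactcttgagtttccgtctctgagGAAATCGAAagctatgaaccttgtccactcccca
Ifit3: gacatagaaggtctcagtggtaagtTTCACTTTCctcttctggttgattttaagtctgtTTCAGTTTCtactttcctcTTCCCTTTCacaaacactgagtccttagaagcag
Ifit1: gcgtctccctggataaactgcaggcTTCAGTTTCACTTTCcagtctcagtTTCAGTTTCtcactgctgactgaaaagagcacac
A match is a description of the letters and not evidence of binding in these cells.

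Among uncalled members, Ifit3 read 9.15 and 8.64 in WT and 7.72 and 6.89 in BRAF, and Ifit1 read 7.91 and 8.57 in WT and 7.61 and 6.80 in BRAF. Both encode antiviral proteins that bind RNA. Oas2, an enzyme that senses double-stranded RNA, read 10.26 and 9.31 in WT and 8.74 and 8.05 in BRAF. In all 3 genes the groups were apart. Bone marrow derived dendritic cells (BMDC) of the same genotypes went the other way: 25 of the 27 interferon response genes were above 0 there. The liver difference minus the BMDC difference was called lower for 18 genes, 0.117% of those tested, and higher for 3, 0.0195%. Of the interferon response list 5 genes were among them. BRAF BMDC replicate 2 had a narrow interquartile range of log2 values, 1.90, and an array weight of 0.109. With limma's array weights 13 genes were called lower in this contrast and 0 higher. Rtp4 differed by -3.87 ± 0.44 (SE; adjusted p = 0.0011), with -1.79 in liver and 2.08 in BMDC. Ifi205 differed by -3.96 ± 0.51 (adjusted p = 0.00305) and Ifi203 by -2.21 ± 0.27 (adjusted p = 0.00206). BMDC were cultured from younger mice, 5 weeks old against 14 weeks for the liver mice. Organ, culture and age therefore cannot be told apart.

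**Figure D3:**
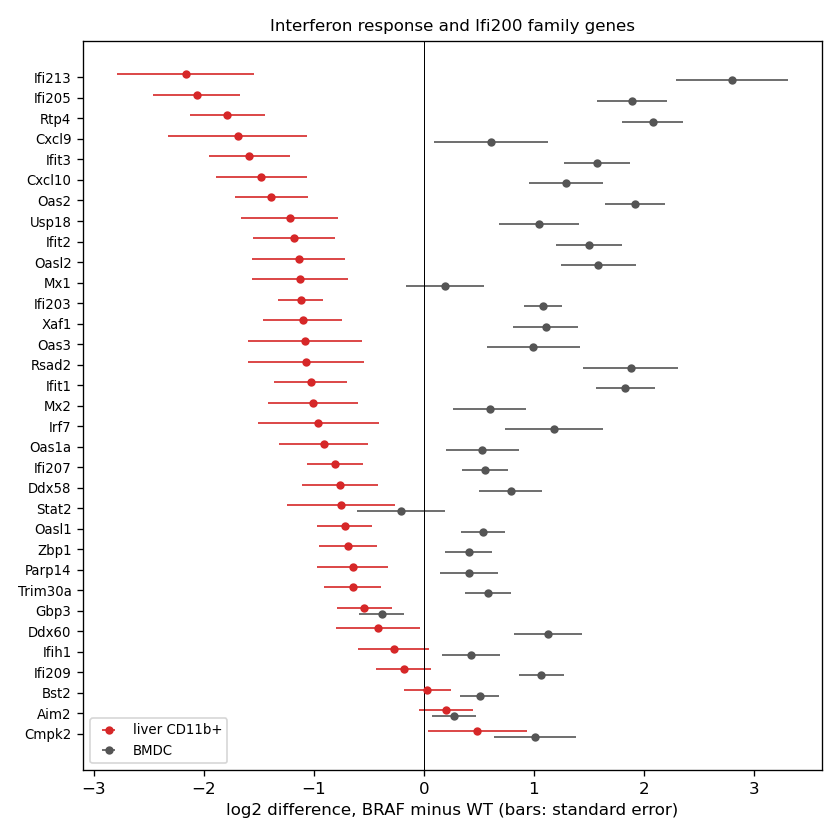
Log2 difference, BRAF minus WT (x axis), of each tested interferon response and Ifi200 gene in liver CD11b+ cells (red) and BMDC (grey), with standard errors as bars. Rtp4 lies at -1.79 in liver and 2.08 in BMDC, and most red points lie left of 0.

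Against lung CD11b+ cells, the population most like this one, limma called 0 genes for a difference between the genotype effects, 0%, and 1392 had an unadjusted p under 0.05. The count was also 0 with quantile normalization, median centring, no filter, the stricter filter, the mean of probe sets, trend and robust eBayes and array weights, and it was 29 without BRAF liver replicate 2. Of the genes called in liver, 19 of 22 higher and 9 of 11 lower had the same sign in lung CD11b+ cells. The exceptions among those called lower were Rtp4 (0.20 in lung) and Ifi205 (0.24 in lung). Ifitm1, called higher in liver with a difference of 2.15, was at -0.095 in lung. Of the 27 interferon response genes 18 were above 0 in lung CD11b+ cells, with a median of 0.12 there.

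Genes of mature dendritic cells and of cholesterol synthesis were mostly below 0 with 0 called. Of 26 tested mature dendritic cell genes 21 were below 0, with a median of -0.41. For 13 both BRAF arrays lay below both WT arrays, and for 1 above. Ccr7, the receptor that guides dendritic cells to lymph nodes, read 8.37 and 8.03 in WT and 7.11 and 6.85 in BRAF (-1.22 ± 0.34, adjusted p = 0.171). It was called lower in lung CD11b+ cells (-3.11, limma's adjusted p = 0.00141) and in BMDC (-1.93, adjusted p = 0.00464). Of 20 cholesterol synthesis genes 16 were below 0 and 11 had both BRAF arrays below both WT arrays, beside 15.8% of all tested genes. Hmgcs1, an early enzyme of the pathway, read 8.74 and 8.33 in WT and 7.42 and 7.40 in BRAF. The list's median was -0.79, and -0.39 without BRAF replicate 2.

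Glycolysis and hypoxia genes were mostly above 0. Of 18 tested, 16 were above 0 and 0 were called. For 13 both BRAF arrays lay above both WT arrays, beside 22.7% of all tested genes, and for 1 below, beside 15.8%. The list's median was 0.76 (0.63 without WT replicate 3, and 0.49 after quantile normalization). Egln3, an oxygen-sensing hydroxylase, read 6.19 and 6.35 in WT and 7.80 and 7.76 in BRAF (2.84-fold, adjusted p = 0.0915). Pdk1, which holds pyruvate back from mitochondria, read 7.06 and 5.81 in WT and 8.04 and 7.54 in BRAF. Of 29 oxidative phosphorylation genes 26 were above 0, with a median of 0.54 that was 0.20 after quantile normalization and 0.25 without BRAF replicate 3.

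Some of the widest differences were uneven between the BRAF arrays and were not called. Cxcl13, a chemokine that attracts B cells, read 5.50 and 5.58 in WT and 8.13 and 11.83 in BRAF. Mmp9, a gelatinase, read 6.44 and 7.22 in WT and 8.88 and 11.21 in BRAF. Mmp8, a collagenase of neutrophils, was more even, at 6.23 and 6.52 in WT and 8.75 and 9.0 in BRAF (adjusted p = 0.197). Trem1, an activating receptor of myeloid cells, and Gda, guanine deaminase, were instead highest on BRAF replicate 2. Trem1 read 5.94 and 6.86 in WT and 9.91 and 7.89 in BRAF, and Gda read 8.25 and 7.14 in WT and 10.89 and 9.44 in BRAF. Hpgds, which makes prostaglandin D, read 7.69 and 7.79 in WT and 6.43 and 6.25 in BRAF (adjusted p = 0.127).

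Cell cycle genes separated 1 array and not the genotypes. All 39 tested had their highest value on BRAF replicate 3, and the list's mean level was 7.93 and 7.59 in WT, and 7.37 and 9.84 on BRAF replicates 2 and 3. The median difference was 0.86 with 0 called; leaving out BRAF replicate 3 turned it to -0.34 and leaving out BRAF replicate 2 gave 2.13. Mpo, a granule enzyme of early neutrophil and monocyte precursors, read 6.50 and 7.91 in WT, and 7.02 and 12.07 on BRAF replicates 2 and 3. Ctsg, a granule protease, read 5.20 and 6.84 in WT, and 5.55 and 12.12 on BRAF replicates 2 and 3. The part of these genes' cells in the other values of that array was not tested.

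**Figure D4:**
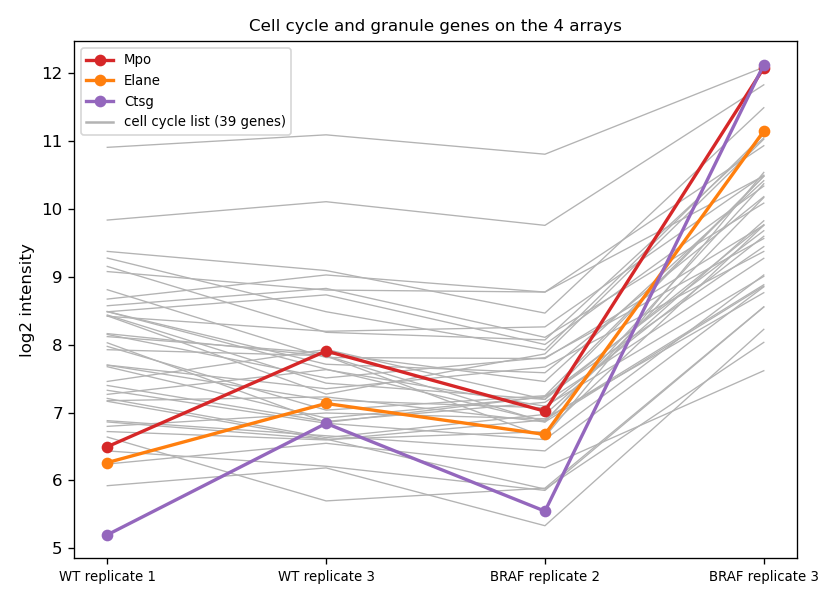
Log2 intensity (y axis) of the 39 tested cell cycle genes (grey lines) and of Mpo, Elane and Ctsg (coloured) on each of the 4 liver CD11b+ arrays (x axis). All the lines have their highest point on BRAF replicate 3, where Mpo reaches 12.07.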

How the data were processed

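RNA of sorted CD11b+ liver cells, extracted with Trizol per the labels' protocols, was measured on 1-colour gene arrays. The authors deposited intensity on a linear scale, with a normalization not given in the sources used here. Log2 was taken here with no constant and no further normalization. Of 24922 probe sets, 21425 name 1 gene; for 921 genes with several, the one of highest mean was used. Genes were tested if 2 or more arrays had them over that array's percentile 30. limma 3.58.1 (R 4.3.3; tables and plots in Python 3.11.15, numpy 2.4.6, pandas 2.3.3, matplotlib 3.10.9) fitted a mean per group over all 18 arrays, with 10 residual degrees of freedom; tests were two-sided. The number of arrays limits the precision. Tested on simulated data over 15365 genes, the liver contrast recovered 33% of log2 changes of 1 and 81% of changes of 2. The simulation gave a gene the same spread on all 18 arrays. The array weights of the liver arrays were low (0.373 to 0.45), so these shares may be too high for the real contrast.

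Members and lists were chosen with earlier results of these data known. Named genes were Braf, Itgam, Itgax, Itgae and Adgre1, the called genes, the 15 widest differences each way between groups that do not overlap, up to 6 members of smallest p and the first 4 markers of each list, and the 8 of smallest p each way in the contrasts with lung and BMDC. Elane, and the genes called in the contrast with BMDC beyond those 8, were chosen after their values were seen. Promoter windows are RefSeq's; the motif searched was GAAANNGAA, on both strands. Alternatives were other scalings, filters, probe set rules, eBayes settings, array weights, fits of fewer arrays and leaving out each array.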

Additional observations from a re-analysis of the deposited data

Results flagged for a closer look

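The genotype difference in liver CD11b+ cells and that in BMDC differed, by limma's contrast of the 2 with Benjamini-Hochberg adjustment, for 21 genes. The liver difference minus the BMDC difference was -5.65 for the collagenase gene Mmp13, -5.15 for Ccl7 and -4.30 for Ccl2, which encode monocyte chemokines, -4.57 for Serpinb10, -4.13 for Serpinb2 and -4.12 for Arg1, which encodes arginase. In these 6 genes the BMDC difference lay between 3.85 and 5.04 and the liver difference between -1.54 and 0.61. Among interferon-inducible genes it was -4.97 for Ifi213, -3.96 for Ifi205, -3.87 for Rtp4, -3.60 for Slfn1, -3.31 for Oas2, -3.16 for Ifit3, -2.86 for Ifit1, -2.76 for Phf11a, -2.68 for Ifit2 and -2.21 for Ifi203. These 10 were below 0 in liver and above 0 in BMDC. The kappa segment Igkv6-20 differed by -5.08 and Gramd3 by -1.65. In the other direction Ngp, a granule protein, differed by 2.72, Miip by 2.09 and Trdmt1 by 1.97.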

How the results depend on the processing

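No paired analysis was possible because the liver groups share only replicate number 3. Under alternatives other than leaving out each array in turn, the 33 called genes kept their direction in all 296 values. Of these values 135 missed the threshold. Most of these alternatives could not turn a direction: filters, eBayes settings, array weights equal within each liver group, and fits of fewer arrays. Only quantile normalization, median centring and the mean of probe sets could have turned it. Leaving out 1 array could not turn the direction of the 33 genes either, because the groups do not overlap for any of them. Genes called higher numbered 12 with the mean of probe sets, 0 with array weights (limma; 716 higher at an unadjusted p under 0.05) and 3 in a fit of the liver arrays alone, and 2 to 333 leaving out 1 array. Genes called lower numbered 28 with quantile normalization, 7 with median centring, 6 with no filter, 6 with the mean of probe sets, 1 with array weights, 4 in the liver arrays alone, 25 without both arrays of narrow spread (WT liver replicate 3 and BRAF BMDC replicate 2), and 4 to 25 leaving out 1. Quantile normalization called 31 higher and 28 lower, against 22 and 11. For the difference from lung, 5 genes were called without both narrow arrays and 1 to 29 leaving out 1. For the difference from BMDC, called higher were 9 with quantile normalization, 6 with median centring, 0 with array weights and 11 without both narrow arrays, and 1 to 365 leaving out 1; called lower were 43 with quantile normalization, 44 without both narrow arrays, and 10 to 54 leaving out 1. List medians without both narrow arrays were -1.26 for interferon response and -1.35 for plasma cells, and quantile normalization gave 0.49 for glycolysis and hypoxia and 0.20 for oxidative phosphorylation. Leaving out 1 array gave -1.26 to -0.62 for interferon response, -1.35 to -0.50 for plasma cells, -1.02 to -0.39 for cholesterol synthesis and -0.34 to 2.13 for cell cycle. Leaving out 1 array turned the sign of several uncalled genes. These included Itgax (-0.51 to 0.33), Mpo (-0.18 to 4.87), Ctsg (-0.47 to 6.10), Alb (-1.16 to 2.19) and Eif2s3y (-2.78 to 0.25). The cause was not tested. With 2 arrays a group, 1 array can decide a call.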

Other observations

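Myeloid lectin receptors differed in direction. Clec5a read 8.50 and 8.12 in WT and 9.43 and 9.68 in BRAF, and Clec4e, a receptor for microbial glycolipids, read 8.79 and 8.19 in WT and 11.03 and 9.45 in BRAF. Clec9a, which marks cross-presenting dendritic cells, read 9.33 and 9.16 in WT and 6.27 and 8.70 in BRAF, and Cd209e read 7.41 and 7.37 in WT and 5.79 and 6.13 in BRAF. None of the 29 tested C-type lectin genes was called. Acp5, an acid phosphatase of osteoclasts and macrophages, read 9.22 and 8.88 in WT and 10.29 and 11.49 in BRAF.

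The Y-linked gene Eif2s3y read 7.0 on WT replicate 3 and 3.98, 4.81 and 3.64 on WT replicate 1 and BRAF replicates 2 and 3. Xist read 10.33 on WT replicate 3 and 11.83, 11.11 and 11.50 on the others. WT replicate 3 thus stood apart from the other WT array in these 2 genes too. How far this bears on its other values was not tested.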
